A study of Mus musculus with 21 samples.

Results

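Liver of mice that lacked both Ezh1 and hepatocyte Ezh2 was compared with control liver at 2 months of age, from RNA-seq. The double knockout (DKO) animals were Ezh1-/- and Ezh2fl/fl with Alb-Cre, and the control (WT) animals were Ezh2fl/fl without Cre. Ezh1-/- animals (E1KO) and Ezh2fl/fl Alb-Cre animals (E2KO) of the same age served only to sort each DKO difference, and the labels do not say whether the Ezh1-/- animals carried the floxed allele. All were on a mixed 129SV::FVB/N::C57BL/6 background. Alb-Cre acts from the albumin promoter, so Ezh2 was removed from hepatocytes, whereas the Ezh1 null allele was in every cell of the animal. The labels give no sex. Per the sample titles each 2-month group had 3 replicates, but the deposited table holds 1 value per gene and group. There is therefore no spread between animals, and no difference at 2 months carries an error or a test. Genes of at least 1 FPKM (a read abundance corrected for gene length and library size) in WT or DKO were compared, which kept 10420 of 22520 genes. The measure was the difference of log2(FPKM+1), DKO minus WT, and a gene counted as higher or lower when that difference reached 1, which is a 2-fold change of FPKM+1.

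EZH1 and EZH2 are alternative catalytic subunits of Polycomb repressive complex 2 (PRC2), which methylates lysine 27 of histone H3 and helps to keep developmental genes silent in differentiated cells. EZH2 is the more abundant enzyme in dividing cells, and EZH1 persists in resting cells such as adult hepatocytes. The hepatocyte is the liver cell that secretes plasma proteins, handles lipids and bile acids, and detoxifies drugs through cytochromes P450 and conjugating enzymes. In mice many of these genes differ between the sexes, because pituitary growth hormone is released in pulses in males and more steadily in females, and acts on the hepatocyte through STAT5.

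The targeted genes were read first. Ezh1 stood at 2.38 FPKM in WT and 2.50 in E2KO, and at 0.07 in both E1KO and DKO. The columns labelled as Ezh1 null were thus the low ones. Ezh2 stood at 1.11 FPKM in WT, 0.80 in E1KO, 0.84 in E2KO and 0.74 in DKO, so its gene-level value barely separated the genotypes. The labels do not say which exons the floxed allele loses, and whole liver also holds cells without Cre, so this value does not check the deletion. The other PRC2 subunit genes stayed within 1 of WT, among them Eed at 6.34 FPKM in WT and 4.59 in DKO and Suz12 at 7.61 and 6.39. None of 18 PRC1 subunit genes compared was past 1 in either direction, where 4.03% of all genes compared were. Xist, the transcript of the inactive X chromosome, was at 0.01 to 0.02 FPKM in all 4 columns, and 6 listed Y-linked genes summed to 37.1 to 46.1 FPKM. Each 2-month column thus held Y-linked RNA and almost no Xist, as male tissue does. Column totals ran from 561358 FPKM in WT to 653737 in E1KO, and the DKO column had 10165 genes of 1 FPKM or more against 9949 in WT.

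At 2 months 244 genes were higher in DKO (2.34% of those compared) and 176 were lower (1.69%), so 58.1% of the called genes were higher. Together they were 4.03% of the genes compared, and the list counts below are to be read beside these shares. That share was 69.3% when the columns were scaled to a common upper quartile, which moved the median difference of all genes from -0.06 to 0.06. The same yardstick for the single knockouts gave 132 higher (1.29%) and 137 lower (1.34%) for E1KO against WT, and 54 (0.533%) and 100 (0.988%) for E2KO against WT. E1KO against E2KO gave 144 (1.42%) and 135 (1.33%). Without a replicate check these numbers are the only measure of how far any pair of 2-month columns lay apart. Of the DKO calls, 119 of the 244 higher genes had under 1 FPKM in WT, and 51 of the 176 lower genes had under 1 FPKM in DKO.

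Small RNA genes weighed heavily on the extremes. They made up 172 of the genes compared, but 47 of the 244 higher and 50 of the 176 lower genes, and 14 of the 20 furthest up and 17 of the 20 furthest down. Their gene models are very short, so a few fragments give a large FPKM, and of these 97 genes 36 were listed at 0 in WT and 32 at 0 in DKO. The liver microRNA gene Mir122a, for example, was listed at 18.04 FPKM in WT and at 0.00 in DKO, in libraries not made for small RNA. The sorting and recurrence counts below leave these genes out unless stated, and use 197 higher and 126 lower genes. That choice was made after the values were seen. The shares over all genes set beside the lists (2.34% higher, 1.69% lower, 4.03% either way) keep them, as do counts at other settings unless stated.

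Each difference was then sorted by the single knockouts. DKO was "apart" when it differed by 1 or more from each of WT, E1KO and E2KO in the same direction, which held for 95 higher genes (0.912% of all compared) and 28 lower genes (0.269%), or 73 and 17 without small RNA genes. A difference was "shared" when E1KO or E2KO also differed from WT by 1 or more in that direction, and "between" when neither held. Higher genes were apart in 37.1% and shared in 31.0% of cases, and lower genes were apart in 13.5% and shared in 55.6%. The sharing was mostly with E1KO, for 58 higher and 60 lower genes, against 7 and 27 with E2KO and 4 and 17 with both. All these comparisons use the same WT column, and that column was the highest of the 4 for 85 of the 126 lower genes and the lowest of the 4 for 108 of the 197 higher genes. With the mean of WT, E1KO and E2KO as the reference, 88 genes were lower instead of 176, small RNA genes included.

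**Figure D1:**
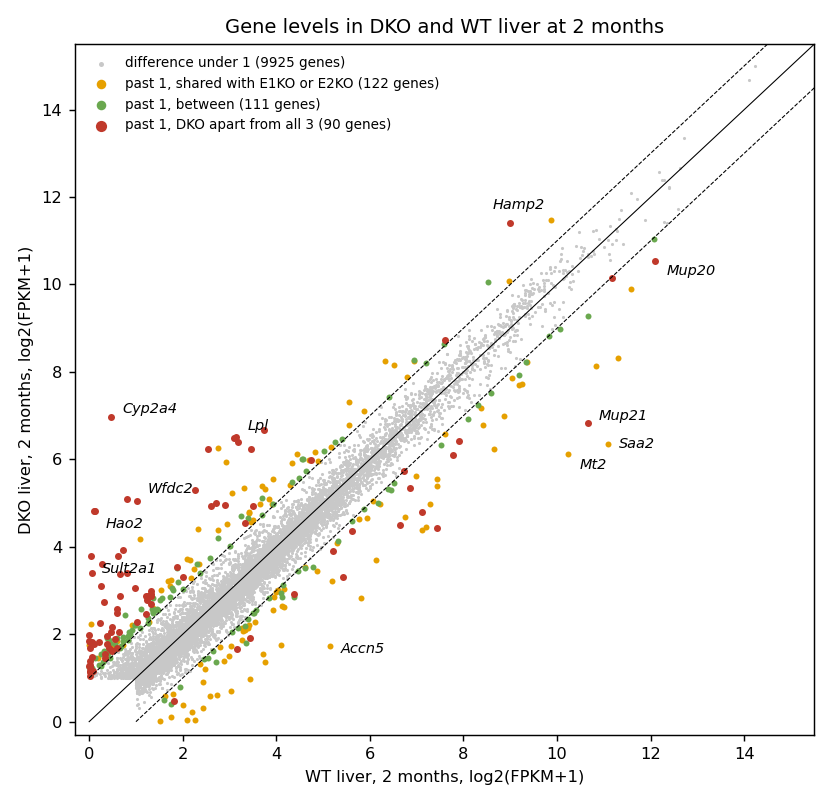
Level of each compared gene in WT liver (x axis) and DKO liver (y axis) at 2 months, both in log2(FPKM+1), without small RNA genes; each point is 1 gene, the solid line marks equality and the dashed lines a difference of 1. Red points, where DKO stood apart from all 3 other genotypes, gather at the upper left (73 higher genes against 17 lower), while most points below the lower dashed line are orange, that is, shared with E1KO or E2KO.

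Small RNA genes aside, the 3 genes furthest up in DKO, Cyp2a4, Cyp2b9 and Hao2, are genes that female mouse liver normally expresses above male liver. Of 39 female-biased genes listed, 31 reached 1 FPKM in WT or DKO. Of these 24 were higher in DKO (77.4%, against 2.34% of all genes) and none was lower. In 20 of them DKO stood apart from all 3 other genotypes. The filter itself favours this direction, because 19 of the 31 reached 1 FPKM only in DKO. Of the 11 that reached it in both columns 6 were higher, with a median difference of 1.24 against -0.07 over all genes expressed in both. Cux2, a transcription factor of female liver, lay just outside the filter with 0.02 FPKM in WT and 0.95 in DKO, and Sult3a1 just inside it with 0.01 and 1.07. At the call itself, Fmo2 with a difference of 0.99 lay just outside and Sult3a1 and Nipal1 with 1.04 just inside.

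Cyp2a4, a female-predominant steroid hydroxylase, stood at 0.39 FPKM in WT, 14.4 in E1KO, 0.48 in E2KO and 124 in DKO. It was 319-fold higher in DKO than in WT and the furthest protein-coding gene of the comparison, with a difference of 6.49, and E1KO lay between. Its near-identical neighbour Cyp2a5 was at 333 FPKM in WT and 406 in DKO, and how reads were divided between the pair is uncertain. Cyp2b9, another female-predominant P450, stood at 0.09 FPKM in WT, 0.30 in E1KO, 0.51 in E2KO and 27.4 in DKO. Hao2, a peroxisomal hydroxyacid oxidase, was at 0.08, 0.18, 0.09 and 27.1 FPKM in the same order. For these genes DKO alone was high, and both single knockouts were within 0.5 of WT except E1KO for Cyp2a4.

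Sulfotransferases of the Sult2a family, which conjugate bile acids and steroids, followed the same order. Sult2a1 was at 0.03 FPKM in WT, 0.05 in E1KO, 0.01 in E2KO and 12.8 in DKO. Sult2a7 was at 0.21 FPKM in WT and 11.2 in DKO, Sult2a2 at 0.00 and 2.96, and Sult2a5 at 0.02 and 1.23. Neither single knockout exceeded 0.73 FPKM for any of these 4 genes, which are close paralogs whose reads may be divided unevenly. A1bg, a secreted female-predominant protein, was at 0.04 FPKM in WT, 0.16 in E1KO, 0.02 in E2KO and 9.62 in DKO. The 3 other columns were close to each other for A1bg and far below DKO.

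Several female-biased genes were also above WT in E1KO, Cyp4a14 and Cyp2c40 by more than 1. Cyp4a14, a fatty acid hydroxylase, was at 0.74 FPKM in WT, 12.7 in E1KO, 0.96 in E2KO and 33.1 in DKO. Cyp2c40 was at 4.79, 14.99, 0.61 and 73.8 FPKM, and Cyp2c69 at 7.6, 15.7, 4.46 and 89.5. E1KO therefore took the second place for all 3, with DKO above it by more than 1. Among female-biased genes with clear expression in WT, Hamp2, a hepcidin copy, was at 511 FPKM in WT, 1013 in E1KO, 637 in E2KO and 2696 in DKO. Cyp17a1, a steroid hydroxylase, was at 10.3 FPKM in WT, 8.10 in E1KO, 6.31 in E2KO and 29.4 in DKO. Not all listed genes differed. The water channel Aqp8 was at 66.9 FPKM in WT and 66.4 in DKO, Tox at 1.06 and 0.85, Cyp39a1 at 5.64 and 4.81, and Cyp3a41a and Gm4794 stayed at or under 0.03.

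Male-biased genes mostly lay the other way, with fewer calls. Of 47 listed, 31 are in the table and 30 were compared. In DKO 11 were lower (36.7%, against 1.69% of all genes) and 1 was higher (3.33%, against 2.34%). The median difference was -0.75, against -0.13 for E1KO and 0.07 for E2KO. Mup21, a major urinary protein, stood at 1624 FPKM in WT, 920 in E1KO, 1744 in E2KO and 112 in DKO, which is 6.91% of WT. Mup20, the male pheromone darcin, was at 4386, 6236, 4616 and 1487 FPKM. Elovl3, a fatty acid elongase of male liver, was at 99.3, 58.7, 101 and 21.4 FPKM. The glutathione transferase Gstp1 was at 2313 FPKM in WT, 2480 in E1KO, 2676 in E2KO and 1137 in DKO, and its close paralog Gstp2 at 9.89, 9.34, 13.6 and 2.77. For these 5 genes DKO was the lowest column and the other 3 lay together above it, though Mup genes and the Gstp pair share reads with near-identical copies and their split is uncertain.

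Another 5 of the 11 were shared with a single knockout. Serpina12, the adipokine vaspin, was at 54.8 FPKM in WT, 7.36 in E1KO, 51.8 in E2KO and 6.07 in DKO, and Moxd1 at 3.82, 0.02, 10.6 and 0.02, so both followed Ezh1 status. Cyp7b1, an oxysterol hydroxylase, was at 343, 169, 233 and 109 FPKM. The exception in direction was Selenbp2, at 79.3 FPKM in WT, 646 in E1KO, 50.6 in E2KO and 305 in DKO. Some well known male genes were not past 1 at this age. Slco1a1, an organic anion carrier, was at 149 FPKM in WT and 87.1 in DKO, Ugt2b1 at 558 and 316, and Hsd3b5 at 175 and 192.

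**Figure D2:**
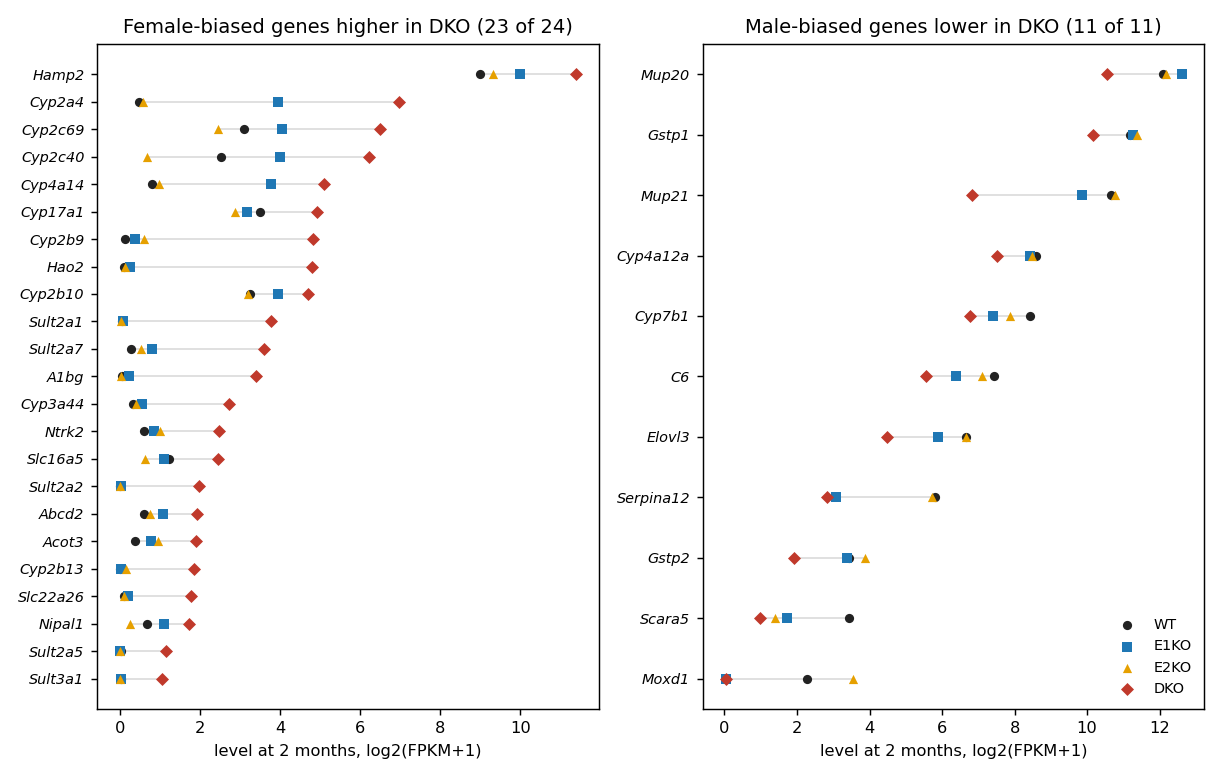
Level in log2(FPKM+1) at 2 months (x axis) of 23 of the 24 female-biased genes that were higher in DKO (left) and the 11 male-biased genes that were lower (right), with 1 marker per genotype and gene. In the left panel the red DKO marker is the rightmost in every row, and for Cyp2a4, Cyp2c40, Cyp2c69 and Cyp4a14 the blue E1KO marker is the next. In the right panel DKO is leftmost, sharing that place with E1KO for Moxd1.

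Most genes of the growth hormone pathway itself were within 1 of WT, but the share called was larger than among all genes. Of 20 compared 2 were higher and 1 was lower, where 2.34% of all genes were higher and 1.69% lower. Igfbp1 (14.2 FPKM in WT, 45.7 in DKO) and Igfbp3 (9.44 and 24.2), which bind insulin-like growth factors, were higher, and Stat3 was lower. For each of these genes both single knockouts lay on the same side of WT as DKO. E1KO differed from WT by more than 1 for Igfbp1 and by just under 1 for Igfbp3 and Stat3. None of these genes kept a difference of 1 against the mean of WT, E1KO and E2KO. The receptor gene Ghr was at 276 FPKM in WT and 233 in DKO, and Igf1 at 263 and 348. Stat5b, the main transducer in hepatocytes, was at 6.68 and 5.22 FPKM, and Bcl6, a repressor in male liver, at 10.8 and 11.98. Socs2, a feedback inhibitor, was at 19.5 FPKM in WT, 9.92 in E1KO, 5.93 in E2KO and 30.3 in DKO. None of these last 5 genes reached a difference of 1 between DKO and WT.

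Some fetal liver genes were at low levels in DKO and lower still in the other genotypes. Of 30 listed 17 were compared and 7 were higher (41.2%, against 2.34% of all genes), with DKO apart in all 7. The filter favours this direction too, because 7 of the 17 reached 1 FPKM only in DKO, and of the 10 that reached it in both columns 1 was higher. The list's median difference was 0.59, and 0.27 with no filter. The oncofetal cell-surface proteoglycan gene Gpc3 was at 0.16 FPKM in WT, 0.21 in E1KO, 0.16 in E2KO and 2.52 in DKO. Igf2bp3, a fetal RNA-binding protein, was at 0.17, 0.40, 0.15 and 3.75 FPKM. The imprinted long RNA H19 was at 0.02, 0.06, 0.08 and 2.52 FPKM. Spink3, a trypsin inhibitor, was at 0.57, 0.78, 0.68 and 6.31, and Scd2, the fetal stearoyl-CoA desaturase, at 0.50, 0.71, 0.48 and 4.96. Tff3, a secreted trefoil peptide, was expressed in all columns, at 9.92, 15.2, 5.81 and 74.1 FPKM. Afp itself, the classical fetal plasma protein, was at 0.75 FPKM in WT and 1.16 in DKO, and Dlk1 was at 0.02 FPKM in DKO and listed at 0 elsewhere. Igf2 was at 0.10 and 0.51 FPKM. The imprinted genes Sgce (0.96 FPKM in WT, 2.39 in E1KO, 1.05 in E2KO, 7.38 in DKO) and Cdkn1c (0.65, 1.29, 0.55 and 2.58) were also higher.

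Hox genes, which are classical Polycomb targets, were near silent in all 4 columns, with a few exceptions in DKO. Of 39 Hox genes 1 reached 1 FPKM, Hoxa10, with 0.01 FPKM in WT, 0.00 in E1KO, 0.01 in E2KO and 1.61 in DKO. Hoxd9 at 0.82 and Hoxc10 at 0.71 FPKM in DKO fell short of the filter, against 0.04 or less in the other 2-month columns. The number of Hox genes listed at 0 was 20 in WT, 18 in E1KO, 20 in E2KO and 5 in DKO. Of 112 other developmental transcription factor genes in the table, 55 were listed at 0 in WT and 15 in DKO. At least 1 FPKM was reached by 11 of them in WT, 14 in E1KO, 13 in E2KO and 17 in DKO. Of the 18 compared, 7 reached 1 FPKM only in DKO, and Sim2 alone was called (5.56% higher, against 2.34% of all genes). Sim2 was at 0.01 FPKM in WT, 0.00 in both single knockouts and 1.2 in DKO. Over all genes in the table, 6423 were listed at 0 in WT and 5852 in DKO. Cdkn2a, which encodes the senescence proteins p16 and p19, was listed at 0 in WT and stood at 0.05 in E1KO, 0.06 in E2KO and 1.40 in DKO. Its neighbour Cdkn2b was at 0.12 FPKM in WT and 0.44 in DKO, and Cdkn1a, the p53-induced inhibitor p21, was not higher (2.08 and 1.39). Among 21 cell cycle genes compared 1 was called, a share of 4.76% higher against 2.34% of all genes. It was Ccnd1, cyclin D1, at 5.05 FPKM in WT, 8.92 in E1KO, 3.93 in E2KO and 29.6 in DKO. The proliferation marker Mki67 stayed at 0.12 and 0.25 FPKM. Aldh1a2, which makes retinoic acid, was at 0.05, 0.09, 0.09 and 1.77 FPKM.

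The promoters of fetal and of sex-biased genes are shown for a feature known for PRC2 targets, the density of CG dinucleotides. Each is the 250 bases before the transcription start from RefSeq on GRCm38.p6 (the expression table used mm9), 5′ to 3′ on the gene's own strand, with every CG in capitals. Gpc3 (chrX:52613975-52614224, minus strand) and Igf2bp3 (chr6:49214955-49215204, minus strand) are fetal genes that were higher in DKO. Cyp2b9 (chr7:26173159-26173408, plus strand) and Hao2 (chr3:98893231-98893480, minus strand) are female-biased genes that were higher, and Mup21 (chr4:62150842-62151091, minus strand) is a male-biased gene that was lower.
Gpc3: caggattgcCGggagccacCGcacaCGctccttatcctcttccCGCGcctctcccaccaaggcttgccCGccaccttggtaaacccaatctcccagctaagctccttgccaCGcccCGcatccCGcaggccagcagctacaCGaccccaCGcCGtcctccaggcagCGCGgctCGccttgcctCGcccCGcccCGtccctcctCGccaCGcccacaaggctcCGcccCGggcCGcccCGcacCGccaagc
Igf2bp3: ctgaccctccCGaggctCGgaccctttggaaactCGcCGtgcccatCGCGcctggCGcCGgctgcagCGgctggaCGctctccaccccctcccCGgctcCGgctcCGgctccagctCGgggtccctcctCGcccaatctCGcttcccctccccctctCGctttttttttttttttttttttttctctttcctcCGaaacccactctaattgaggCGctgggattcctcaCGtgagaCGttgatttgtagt
Cyp2b9: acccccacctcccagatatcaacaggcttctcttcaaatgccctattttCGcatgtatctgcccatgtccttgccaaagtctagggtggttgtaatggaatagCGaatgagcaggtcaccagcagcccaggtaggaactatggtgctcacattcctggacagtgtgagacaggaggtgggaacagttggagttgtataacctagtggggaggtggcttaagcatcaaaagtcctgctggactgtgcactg
Hao2: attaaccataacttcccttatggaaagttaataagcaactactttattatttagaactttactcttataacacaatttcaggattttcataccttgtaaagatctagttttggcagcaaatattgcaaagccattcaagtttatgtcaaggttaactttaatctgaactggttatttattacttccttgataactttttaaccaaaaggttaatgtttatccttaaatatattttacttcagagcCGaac
Mup21: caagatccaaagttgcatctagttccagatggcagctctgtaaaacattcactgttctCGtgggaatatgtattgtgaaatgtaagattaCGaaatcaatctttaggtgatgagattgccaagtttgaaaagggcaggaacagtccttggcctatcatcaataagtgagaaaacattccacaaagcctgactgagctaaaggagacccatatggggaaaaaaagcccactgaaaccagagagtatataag
Gpc3 holds 25 and Igf2bp3 21 CG dinucleotides in this window, with observed-to-expected ratios of 0.936 and 1.00, where the expectation is the product of the C and G frequencies. Cyp2b9 holds 2, Hao2 1 and Mup21 2, with ratios of 0.125, 0.205 and 0.198. Of all 8064 protein-coding genes compared that matched a promoter entry (81.1% of 9943), 68.0% had a ratio of 0.6 or more. The CG-rich pair does not stand for the fetal list, in which 3 of 11 genes with an entry had such a ratio. Entries covered 68.8% of the fetal, 72.4% of the male-biased and 61.3% of the female-biased protein-coding genes compared, so a check over any of these lists is void.

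Among lipid handling genes DKO stood apart for some and shared its difference with E1KO for others. Lpl, lipoprotein lipase, which is normally shut off in adult hepatocytes, was at 7.86 FPKM in WT, 16.5 in E1KO, 4.99 in E2KO and 90.2 in DKO. Its activator gene Apoc2 was at 368, 535, 411 and 1064 FPKM. Mfsd2a, a carrier of lysophospholipids, was at 8.13, 37.6, 6.80 and 83.3 FPKM, so both Ezh1-null columns were high and DKO was the higher. Apoa4, an apolipoprotein of triglyceride-rich particles, was at 193, 151, 119 and 423 FPKM. Apom, which carries sphingosine phosphate in high-density lipoprotein, was lower, at 240, 188, 319 and 85.1, and Fitm1, a lipid droplet protein, at 36.1, 47.8, 58.0 and 14.1 FPKM. In the 3 genes Lpl, Apom and Fitm1 the 3 other genotypes lay closer to each other than to DKO on the log2 scale. Of 39 lipid uptake and droplet genes compared 5 were higher (12.8%, against 2.34% of all genes) and 1 lower (2.56%, against 1.69%). Their median difference was 0.22. Cd36 (3.64 FPKM in WT, 6.79 in DKO), Plin2 (155 and 105), Pparg (2.32 and 2.71) and Cidec (2.35 and 1.26) were within 1.

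In the lipogenic list 3 of 31 genes were higher (9.68%, against 2.34% of all genes) and 2 lower (6.45%, against 1.69%). Besides Scd2 these were Srebf1, the lipogenic master regulator, at 37.2 FPKM in WT, 56.2 in E1KO, 62.8 in E2KO and 83.7 in DKO, and Fasn, fatty acid synthase, at 21.5, 42.6, 32.2 and 46.9. Both single knockouts lay above WT for each, and neither gene kept a difference of 1 against the mean of the 3 other genotypes. Insig2, an inhibitor of SREBP processing, was at 86.4, 50.7, 103 and 38.4 FPKM. The 4 fatty acid oxidation genes that were higher, of 36 compared (11.1%, against 2.34% of all genes), were Cyp4a10, Cyp4a14, Cyp4a31 and Acot3. Cyp4a10 was at 6.59 FPKM in WT, 48.6 in E1KO, 9.86 in E2KO and 60.5 in DKO, nearly as high in E1KO as in DKO. The other 32 were within 1, with the fatty acid importer gene Cpt1a at 67.1 FPKM in WT and 65.9 in DKO as an example. None of 28 cholesterol synthesis genes was past 1.

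Drug-metabolising enzymes differed in both directions, and many of these genes are also in the sex-biased lists. Of 52 xenobiotic P450 genes 11 were higher and 6 lower. Outside the female-biased list the higher ones were Cyp2a22 (1.40 FPKM in WT, 6.39 in DKO), Cyp2c55 (8.89 and 39.4) and Cyp4a10. The lower ones included Cyp2c67, at 217 FPKM in WT, 224 in E1KO, 156 in E2KO and 67.1 in DKO, and Cyp2d40, at 115, 81.8, 95.0 and 39.7, both apart. Cyp2f2, a periportal P450, was at 1062, 912, 1156 and 505 FPKM. The abundant Cyp2e1 was level at 5359 and 4759 FPKM. Ugt1a9, a glucuronosyltransferase whose exons are partly common to all Ugt1a genes, was at 107 FPKM in WT, 33.8 in E1KO, 135 in E2KO and 24.7 in DKO. Of 38 glutathione transferase and NRF2 genes 4 were lower (10.5%, against 1.69% of all genes) and none was higher. The lower ones were the Gstp pair, Gclc (71.6, 45.8, 96.9 and 31.1 FPKM) and Hmox1 (17.0, 8.43, 7.38 and 7.13). Among 30 bile acid genes 2 were lower (6.67%, against 1.69% of all genes) and none was higher. The 2 were Cyp7b1 and the transporter Slc10a2 (12.1, 4.52, 8.80 and 1.94 FPKM). Cyp7a1, the rate-limiting enzyme of bile acid synthesis, was at 24.96 FPKM in WT and 47.3 in DKO, a difference of 0.89. Of 40 urea cycle and amino acid genes 1 was lower (2.5%, against 1.69% of all genes), Cps1, at 525, 234, 507 and 233 FPKM.

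Acute phase genes, which hepatocytes induce in inflammation, were the list with the most genes lower in DKO, and these differences were mostly shared with the single knockouts. Of 40 compared, 16 were lower in DKO (40.0%, against 1.69% of all genes) and 3 higher (7.5%, against 2.34%). The median was -0.89, and the medians were -0.59 for E1KO and -0.73 for E2KO. All 16 were also below WT in both single knockouts, and 14 were past 1 in at least 1 of them. Saa2, serum amyloid A2, stood at 2175 FPKM in WT, 54.3 in E1KO, 260 in E2KO and 80.2 in DKO. Saa1 was at 2517, 240, 466 and 318 FPKM. The fibrinogen chain gene Fga was at 3043, 1038, 1747 and 951 FPKM, and Steap4, a metalloreductase, at 137, 22.1, 25.2 and 19.9. WT was the single high column for each of these. WT was also the highest of the 4 for 32 of the 40 genes, and with the mean of the 3 other genotypes as reference 4 of the 16 remained lower by 1.

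Metallothioneins, which bind zinc and copper, were also highest in WT, with another order among the knockouts. Mt1 stood at 1825 FPKM in WT, 222 in E1KO, 60.4 in E2KO and 281 in DKO. Mt2 was at 1212, 79.9, 7.29 and 68.5 FPKM. DKO lay above E2KO for both and well below WT. The zinc importer Slc39a4 differed, at 48.0, 46.2, 40.4 and 19.4 FPKM, with DKO apart. Lcn2, lipocalin 2, was at 156, 23.2, 7.28 and 30.3 FPKM. In the 8-month WT column, which holds other animals, Saa2 was at 49.3 FPKM, Mt1 at 15.1, Mt2 at 6.31 and Lcn2 at 5.81. Saa1, Saa2, Steap4, Mt1, Mt2 and Lcn2 were all higher in the 2-month WT column than in any other untreated column, and whether all its replicates carried these values cannot be read from 1 value per group. Acute phase genes that were higher in DKO were Orm3 (6.43 FPKM in WT, 8.08 in E1KO, 5.70 in E2KO, 30.0 in DKO) and Hamp2, both apart, and Cebpb, which E1KO shared (46.3, 116, 64.6 and 108).

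**Figure D3:**
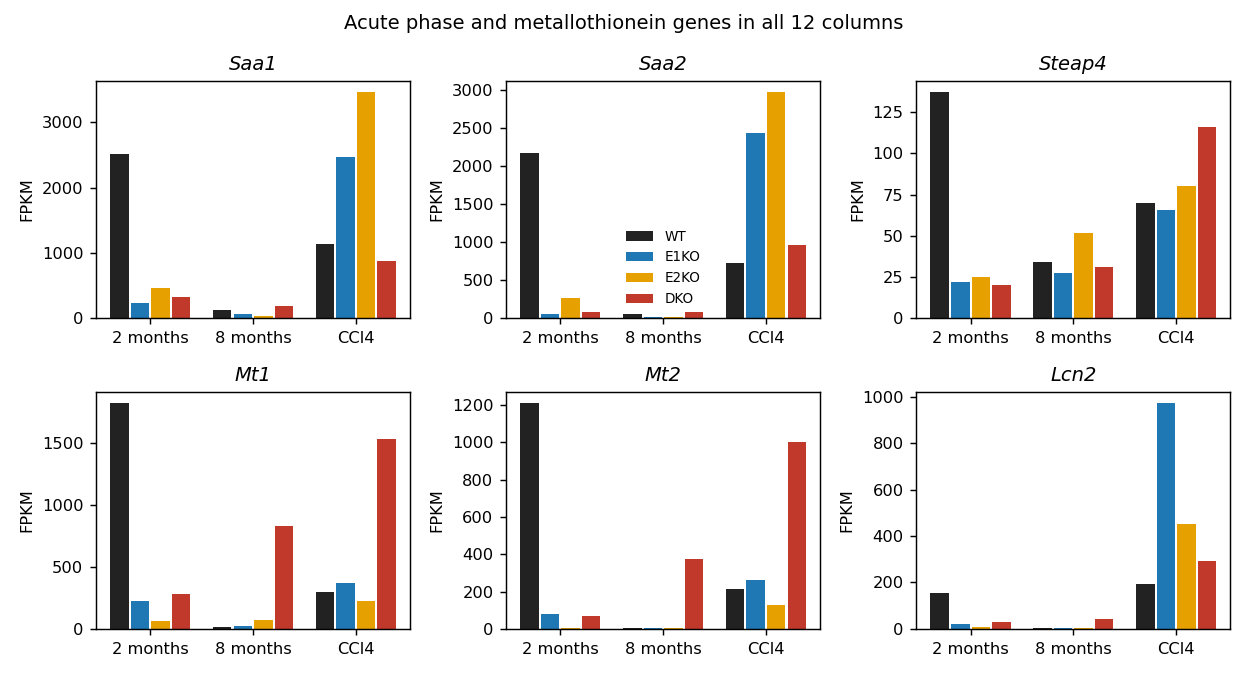
FPKM (y axis, from 0) of 3 acute phase genes, 2 metallothionein genes and Lcn2 in all 12 columns, grouped by condition on the x axis, with 1 bar per genotype and 1 value per bar. At 2 months the black WT bar is the tallest in all 6 panels, whereas at 8 months Mt1 and Mt2 are tallest in DKO (834 and 375 FPKM).

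Differences that DKO shared with E1KO included genes of the daily clock. Of 21 clock genes 5 were higher (23.8%, against 2.34% of all genes), all 5 shared with E1KO. Nfil3 was lower (4.76%, against 1.69%). Per1 was at 4.09 FPKM in WT, 10.2 in E1KO, 7.07 in E2KO and 11.1 in DKO, and Dbp at 35.1, 74.2, 60.0 and 76.2. Their opposite-phase partner Arntl was at 1.02, 0.25, 0.77 and 0.30 FPKM. The labels give no time of day for collection, and its part in these values was not tested. None of the 5 higher clock genes kept a difference of 1 against the mean of the other genotypes. Rgs16, a regulator of G-protein signalling in fasting liver, was at 5.73, 57.1, 10.4 and 75.6 FPKM. Ddit4, a stress-induced inhibitor of mTORC1, was at 4.0, 19.3, 3.76 and 20.1, nearly equal in both Ezh1-null columns. Igfbp1 was at 14.2, 45.3, 25.99 and 45.7 FPKM.

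A few genes followed the labelled Ezh1 genotype at 2 months. AA465934 stood at 1.11 FPKM in WT and 0.92 in E2KO but at 9.99 in E1KO and 17.1 in DKO, and with CCl4 it stood at 11.3 in E1KO and 26.8 in DKO against 1.0 in WT and 0.63 in E2KO. At 8 months it was at 20.3 FPKM in DKO, 2.32 in WT and 1.23 in E2KO, and at 15.4 in the library labelled E1KO, in which Ezh1 itself was at 0.88 FPKM. Gm15698 was listed at 0 in WT and E2KO and stood at 1.13 in E1KO and 2.35 in DKO. In the other direction, Accn5, an ion channel, was at 34.3 FPKM in WT, 4.07 in E1KO, 43.1 in E2KO and 2.32 in DKO, and Cd1d2, a lipid antigen-presenting molecule, at 3.26, 0.00, 4.65 and 0.02. Ezh1 lies on chromosome 11. By RefSeq order, counting compared genes only, Gm15698 lies 110 and AA465934 164 genes from it. The nearest genes past 1, small RNA genes aside, were Stat3 at 9, Arl4d at 18 and Krt23 at 25 genes. With small RNA genes included, 43 of 878 genes compared on chromosome 11 were past 1 (4.90%), against 4.03% of all genes. On a mixed background, alleles that travel with the Ezh1 null locus cannot be told apart from the loss of Ezh1 in either E1KO or DKO. For genes not linked to Ezh1, other background alleles that differ between the columns cannot be told apart from it either.

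Of 68 matrix genes listed 41 were compared. Of these 8 were higher in DKO (19.5%, against 2.34% of all genes), none was lower and 33 were within 1. The median difference was 0.58 in DKO, 0.36 in E1KO and 0.02 in E2KO. Of the 41 genes 10 reached 1 FPKM only in DKO, and with no filter the DKO median was 0.32. Among the 31 that reached it in both columns 6 were higher. Col1a1 was at 1.72 FPKM in WT, 3.07 in E1KO, 1.34 in E2KO and 4.99 in DKO, and Col3a1 at 5.72, 11.8, 5.13 and 17.3. E1KO took the second place in both. Col4a5, a basement membrane collagen chain, was apart, at 0.52, 0.37, 0.42 and 2.23 FPKM. Stellate cell markers, from the cells that make most liver collagen, were above WT for all 19 genes compared, but 18 of the 19 were within 1, with a median difference of 0.50. The sum of the listed stellate markers was 120 FPKM in WT, 173 in E1KO, 141 in E2KO and 200 in DKO. Acta2 was at 1.5 and 2.71 FPKM, Des at 1.84 and 2.97, and Timp1, a marker of active fibrosis, at 0.58 and 0.40. Sinusoidal endothelial markers had a median of 0.32 with none of 25 past 1, and their sum was 121 FPKM in WT, 151 in E1KO, 111 in E2KO and 165 in DKO. In whole tissue, more cells of a type and more RNA per cell cannot be told apart.

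Markers of other cells were mostly within 1 of WT. Of 29 macrophage markers none was higher and Id3 was lower (3.45%, against 1.69% of all genes). Clec4f of Kupffer cells was at 28.8 FPKM in WT and 34.9 in DKO. Lymphocyte markers summed to 19.4 FPKM in WT, 32.85 in E1KO, 23.8 in E2KO and 30.8 in DKO. All 4 genes compared were above WT, with a median difference of 0.57 and none past 1, and 2 of the 4 reached 1 FPKM only in DKO. The bile duct markers Krt19 (0.83 and 1.01 FPKM) and Epcam (0.51 and 0.64) were level. Of 15 bile duct and progenitor markers compared 3 were higher and 1, Lcn2, was lower, where 2.34% of all genes were higher and 1.69% lower. Their median difference was -0.09, with 8 of the 15 below WT, and 4 reached 1 FPKM only in DKO. The 3 higher members were Wfdc2, Krt23 and Cldn7. Wfdc2 was at 1.03 FPKM in WT, 3.67 in E1KO, 1.25 in E2KO and 32.3 in DKO. In the same order Krt23 was at 0.75, 1.62, 1.24 and 9.51 FPKM, and Cldn7 at 0.20, 0.48, 0.24 and 1.92. Wfdc2 is a secreted protease inhibitor, Krt23 a keratin and Cldn7 a tight junction protein. Skeletal muscle genes summed to 1.31 to 1.45 FPKM in the 4 columns. In further lists, none of 28 unfolded protein response genes, 14 heat shock genes or 19 Wnt pathway genes was past 1. With 4.03% of all genes past 1, none in lists of this size is near that share. The 46 secreted protein genes had 4 lower (8.7%, against 1.69%) and 1 higher (2.17%, against 2.34%).

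**Figure D4:**
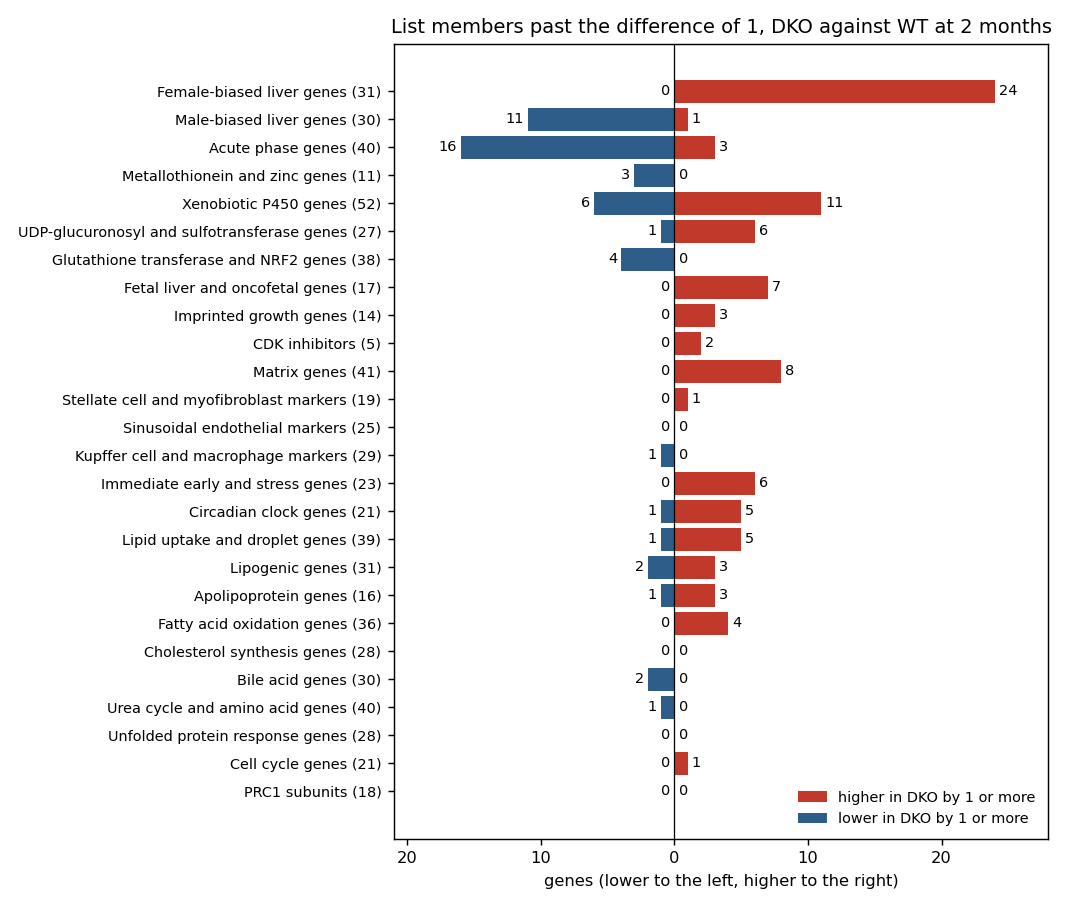
Number of genes per list (x axis) that were higher by 1 or more in DKO than in WT at 2 months (red, to the right) or lower (blue, to the left), with the number of genes compared in brackets after each list name. Female-biased (24 higher) and acute phase (16 lower) lists hold the longest bars, and lists such as cholesterol synthesis and unfolded protein response hold none.

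The 8-month and CCl4 columns come from other libraries and show which 2-month differences recurred there. Of the 197 higher genes, 88 were higher by 1 or more at 8 months (44.7%, against 2.22% of genes compared, small RNA genes aside). With CCl4 95 were higher (48.2%, against 2.52%), and 51 were higher in both. Of the 126 lower genes, 32 were lower at 8 months (25.4%, against 0.966%) and 32 with CCl4 (25.4%, against 1.56%). Where DKO stood apart, the shares were 57.5% and 74.0% of the 73 higher genes and 76.5% and 70.6% of the 17 lower ones. For higher genes that were shared and not apart the shares were 39.6% and 30.2% of 53, and for lower ones 17.4% and 21.7% of 69. The difference between these shares was not tested. No gene in the apart sets was past 1 in the opposite direction in either condition.

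The female-biased genes recurred unevenly. Of the 24, 20 were higher with CCl4 but 8 at 8 months, when several were expressed in WT. Cyp2b9 was at 14.8 FPKM in 8-month WT and 25.1 in DKO, and Cyp4a14 at 85.2 and 116. Cyp2c69 was at 3.91 FPKM in 8-month WT and 1.58 in DKO. Sult2a1, by contrast, stood at 0.19 FPKM in 8-month WT and 50.9 in DKO, and at 0.09 and 52.7 with CCl4. Male-biased genes past 1 at 2 months recurred for 6 of 11 at 8 months and 8 of 11 with CCl4, among them Mup21 at 1094 and 85.6 FPKM at 8 months. Slco1a1 and Hsd3b5, which were within 1 at 2 months, stood at 124 and 59.0 FPKM in 8-month WT and at 1.07 and 0.88 in DKO. None of the 16 acute phase genes that were lower at 2 months was lower by 1 in either other condition. All 7 fetal genes were higher again at 8 months and 5 with CCl4, where Gpc3 reached 32.3 FPKM against 1.09 in WT.

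Those columns also allow a test, in which a genotype's values at 8 months and with CCl4 stand in for replicates once the condition is fitted, so that its p-values measure only the spread between columns. In 1 of them, E1KO at 8 months, Ezh1 was at 0.88 FPKM, H19 at 13 and the muscle actin Acta1 at 129, against 0.22 or less for Acta1 elsewhere, so the library labelled E1KO stood apart. The limma fit on 8 columns had 3 residual degrees of freedom and tested 11262 genes, of which 24 were higher (0.213%) and 2 lower (0.0178%) in DKO at an adjusted p under 0.05, while 1358 (12.1%) had an unadjusted p under 0.05. Of the 2-month genes 12 higher and 1 lower were among them, and without the 8-month E1KO column the fit called 16 and 1 genes. Sult2a1 was higher by 5.53 on the log2(FPKM+1) scale (SE 0.11, limma adjusted p = 0.00015), Sult2a2 by 4.44 (SE 0.17, limma adjusted p = 0.00149) and Cdkn2a by 3.04 (SE 0.12, limma adjusted p = 0.00149). Sult2a5, Cldn7 and Scd2 also kept an adjusted p under 0.05 in each of 4 versions of the fit. A gene could enter the fit through the DKO columns alone, because the filter asked for 1 FPKM in at least 2 of 8 columns. Sult2a1 was under 1 FPKM in WT in both conditions. Genes near 0 outside DKO spread little on the log2(FPKM+1) scale, so a small SE and p-value for such a gene is not separate support. Aldh1a2, Cyp2a4, Tff3, Ddit4, AA465934, Gm15698 and Nlrp12 passed as reported but missed the threshold in at least 1 version. Most 2-month differences did not pass in this small fit, Lpl (difference 3.18, limma adjusted p = 0.137), Mup21 (difference -3.45, limma adjusted p = 0.061) and Gpc3 (difference 2.85, limma adjusted p = 0.21) among them.

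**Figure D5:**
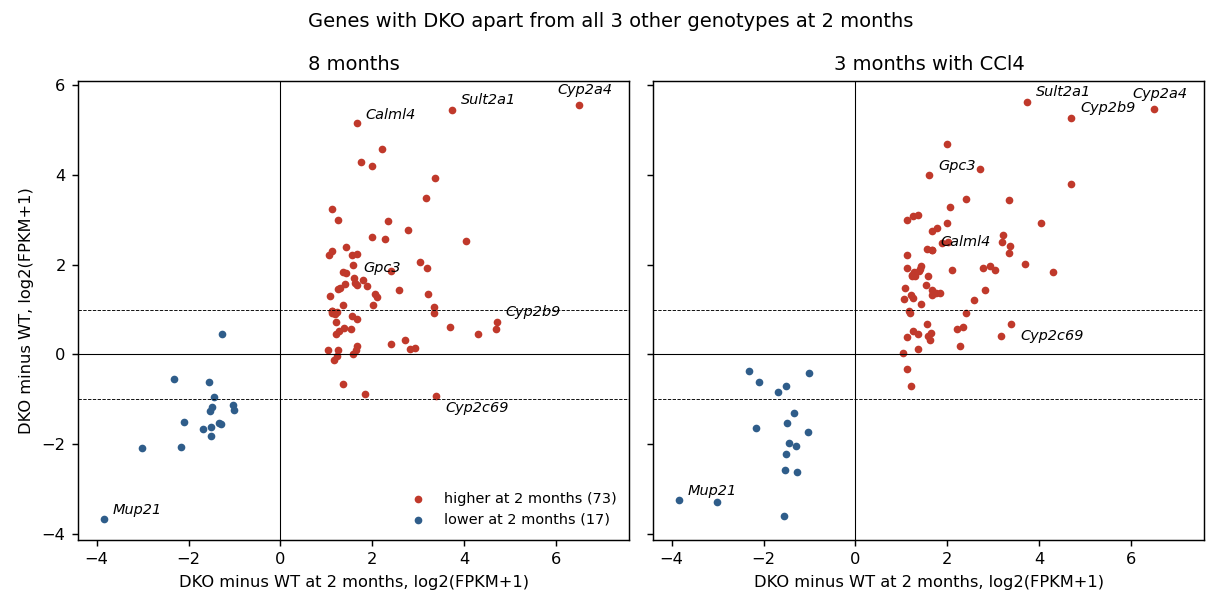
Difference DKO minus WT in log2(FPKM+1) at 8 months (left) and at 3 months with CCl4 (right) on the y axis against that at 2 months on the x axis, for the 73 higher (red) and 17 lower (blue) genes whose DKO value stood apart at 2 months; dashed lines mark 1 and -1. No red point lies below -1 and no blue point above 1 in either panel, and points between the dashed lines, such as Cyp2c69, are genes that did not recur.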

How the data were processed

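RNA-seq of whole liver was read from the deposited table of FPKM values, which the authors made with 1 value per gene and group. The submitters' processing notes name CASAVA, TopHat and Cufflinks and the mm9 build, with no versions, and the step that turned replicates into 1 value is stated nowhere in them. Libraries were TruSeq libraries from total RNA, per the labels' protocols. Depth is unknown, so no interval or limit from counts is given. The 9 ChIP samples of the series were not analysed here, and 0 value columns of the table were left unmapped.

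Genes of at least 1 FPKM in WT or DKO at 2 months were compared as log2(FPKM+1), with Python 3.11.15, pandas 2.3.3 and numpy 2.4.6. A difference on this scale understates the change of low genes. Members, gene lists and rules were chosen with earlier results of these data known. Genes named were Ezh1 and Ezh2, the 20 furthest in each direction, the 10 furthest in FPKM in each direction, up to 6 called members of each of 52 lists with defining members, and called genes nearest Ezh1. Genes named outside this rule, such as those level in DKO, were added for their known roles after their values were seen.

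Columns other than 2 months were fitted with limma 3.58.1 (R 4.3.3), genotype plus condition with trend, for genes of 1 FPKM or more in at least 2 of 8 columns, two-sided with Benjamini-Hochberg adjustment over all genes. On simulated data with 200 genes changed by 3 on the log2 scale, the fit recovered 200 and called 9 others of 11262. The simulation gave every gene the same spread, unlike the data, so it does not measure the power of the fit on these columns. Symbols of 22285 of 22520 genes matched RefSeq, which supplied promoters and gene order. Alternatives changed the pseudocount, filter, scale, cutoff and reference. A few genes are not reported here by name, though they stay in the counts.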

Additional observations from a re-analysis of the deposited data

Results flagged for a closer look

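In 7 protein-coding genes the DKO difference from WT was past 1 in opposite directions at 2 and 8 months, with 1 column per group at each age, and the difference between the ages was not tested. Mt1 was lower by 2.69 at 2 months (-2.69 on the log2(FPKM+1) scale) and higher by 5.70 at 8 months. Mt2 stood at -4.12 and 5.68, and Lcn2 at -2.33 and 2.63. Cxcl14, a chemokine, stood at -1.27 and 1.19. For these 4 genes WT was the highest 2-month column, and DKO the highest 8-month column.

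The other 3 were higher in DKO at 2 months and lower at 8 months. Pltp, the phospholipid transfer protein, stood at 1.33 and -2.06, with 11.6 FPKM in 2-month WT and 88.3 in 8-month WT. Serpina3c, a protease inhibitor, stood at 1.64 and -1.20, and its 2-month value was shared with E1KO (288 FPKM, against 284 in DKO). Lect1, a cartilage matrix protein, stood at 1.03 and -2.01.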

How the results depend on the processing

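With 1 value per group, no setting gives the 2-month differences an error, and FPKM keeps no depth. No paired analysis was possible because each group is a single column. The 244 higher genes became 414 with a pseudocount of 0.1 FPKM, 803 at a difference of 0.5 and 65 at a difference of 2. The 176 lower genes became 695 and 60 at those differences, and 88 with the mean of WT, E1KO and E2KO as reference. The share of calls that were higher, 58.1%, was 69.34% on the upper quartile scale and 67.77% with the mean reference. Genes with DKO apart numbered 155 higher with the pseudocount of 0.1, and 17 lower without small RNA genes, a setting chosen after seeing the data. Lists with a median difference of 0.5 or more in size numbered 9, and 3 with no filter and 4 with the mean reference. Of 160 named genes, 148 were past 1 as reported and 97 with the mean reference, where the genes that dropped under 1 include Mt1 (-0.05), Mt2 (-0.42), Lcn2 (-0.01), Srebf1, Fasn and Cps1. All 160 named genes stayed on their side of 1 with the pseudocount of 0.1 and the median ratio scale. With the mean reference all 24 female-biased, 10 of 11 male-biased and all 7 fetal genes stayed past 1. The limma fit called 26 genes, 65 with no filter (21 of the 26 among them), 11 with the pseudocount of 0.1 (9 of them) and 17 without the 8-month E1KO column (14 of them). The causes of these shifts were not tested. Medians of lists near 0 could change sign, as for cholesterol synthesis (0.12, and -0.09 with the mean reference), cholangiocyte markers (-0.09, and 0.13 with that reference) and Notch and Hippo genes (-0.15, and 0.04 with no filter).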

Other observations

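Several genes outside the lists also stood apart in DKO at 2 months, and were chosen after their values were seen. Slc25a4, the mitochondrial ADP/ATP carrier of heart and muscle, was at 3.82 FPKM in WT, 5.2 in E1KO, 3.59 in E2KO and 38.6 in DKO. Ren1, renin, was at 0.54, 2.75, 0.17 and 12.8 FPKM. Ptgds, a prostaglandin D synthase, was at 0.59, 0.67, 0.67 and 9.4, and Cd63, a tetraspanin of late endosomes, at 5.54, 8.31, 5.65 and 30.8. Calml4, a calmodulin-like gene, was at 1.51, 0.87, 1.05 and 6.92 FPKM, and reached 79.6 in 8-month DKO against 1.27 in WT. In the other direction, Ces1b, a carboxylesterase, was at 137, 131, 110 and 26.6 FPKM. For each of these 6 genes the DKO value was beyond all 3 other genotypes by 1 or more on the log2 scale.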
